A study of Mus musculus with 4 samples.

Results

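The cytochrome P450 genes of the mouse were taken from a table of colon transcript counts as every gene symbol made of Cyp, a family number, a subfamily letter and a member number, a rule that does not use measured values. It found 95 of the 46095 symbols of the table. Cyp51, symbols with a further letter at the end such as Cyp3a41a, and symbols marked as pseudogenes are not among them. The libraries came from colon of C57BL/6 mice at postnatal day 21. Of these 2 are labelled wild type (WT) and 2 Esr2-KO, with the genotype Esr2-/-, where Esr2 is the gene of estrogen receptor β; how the allele was made is not stated in the labels. No treatment is named for either group. Triplicates are mentioned in the series' design text; n is 2 per group for all values given here. Separate animals behind each library are not stated in the labels, so p-values measure the spread between these libraries, which may be technical. The labels give neither the stretch of colon nor the hour of collection.

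Cytochrome P450 enzymes are haem proteins that insert an oxygen atom into lipids, steroids and foreign compounds. Members of the lower-numbered families, CYP1 to CYP3, are best known for drugs, plant compounds and arachidonic acid, the CYP4 family for the hydroxylation of fatty acids and eicosanoids, and the higher-numbered families for defined steps of steroid, bile acid, vitamin D and retinoic acid metabolism. In the gut the absorptive epithelium carries a set of its own, and receptors such as the pregnane X receptor (Nr1i2) and the aryl hydrocarbon receptor (Ahr) adjust it to the contents of the lumen.

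The library totals ran from 30826790 to 33709643 counts, and the members took 0.336% and 0.385% of the counts in WT 1 and WT 2 and 0.173% and 0.135% in Esr2-KO 1 and Esr2-KO 2. Esr2-KO 2 held pancreatic transcripts: the summed level of 11 acinar markers was 223 and 196 CPM in WT, 946 in Esr2-KO 1 and 163387 in Esr2-KO 2, where CPM is the usual depth-scaled count, taken on each library's total over the tested genes, scaled by TMM (trimmed mean of M-values). In the WT libraries and Esr2-KO 1 most of this sum was Sycn, at 181 and 185 CPM in WT, 642 in Esr2-KO 1 and 2974 in Esr2-KO 2. Cela2a stood at 11.1 and 2.76 CPM in WT, 83.2 in Esr2-KO 1 and 43695 in Esr2-KO 2. Prss2 alone among these markers was at 0 in all libraries. Of 11 markers of colon epithelium 11 were detected in every library, 2 fell (Cdx2 and Car1) and 0 rose. In edgeR's test 8 of them were at an unadjusted p under 0.05, and DESeq2 called 6 and limma-voom 3. Over all 17169 genes tested 3535 were at such a p. The share of all genes called was 2.69% by edgeR, 10.2% by DESeq2 and 3.53% by limma-voom. Log2 fold changes were positive for 5 and negative for 6. Muc2 (1945 and 1549 CPM in WT against 818 and 346 in Esr2-KO) and Guca2a (2165 and 1636 against 654 and 209) were lower without passing. Car4 was higher without passing (546 and 685 against 1156 and 1348 CPM). Esr2 itself had 21 and 13 counts in the WT libraries against 6 and 16 in the Esr2-KO libraries (log2 fold change -0.32 ± 0.77 SE, edgeR adjusted p = 0.854). These are counts over the whole gene and the deleted exons are not named in the labels, so they do not check the genotype labels. In bulk tissue, fewer cells of a type and less RNA per cell cannot be told apart.

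The genes that passed an adjusted p under 0.05 in edgeR's test lay in 2 clusters of paralogs, Cyp2c on chromosome 19 and Cyp2d on chromosome 15. At this threshold DESeq2 also called Cyp27a1, Cyp3a13, Cyp4f14, Cyp4f16 and Cyp4v3, which lie outside them, so that other members need not be level. The 3 neighbours at one end of the Cyp2c cluster, Cyp2c55, Cyp2c65 and Cyp2c66, fell in Esr2-KO colon, while Cyp2c68 of the same cluster and Cyp2d9, Cyp2d10 and Cyp2d13 of the other rose. The promoters of 6 of these 7 genes, all but Cyp2d13, are given as RefSeq has them on GRCm38.p6, because those of each cluster can be compared with the direction of change. Each runs from 250 bases before to 50 after the annotated start, 5′ to 3′ on the gene's strand.
Cyp2c55 (chr19:39006769-39007068, + strand): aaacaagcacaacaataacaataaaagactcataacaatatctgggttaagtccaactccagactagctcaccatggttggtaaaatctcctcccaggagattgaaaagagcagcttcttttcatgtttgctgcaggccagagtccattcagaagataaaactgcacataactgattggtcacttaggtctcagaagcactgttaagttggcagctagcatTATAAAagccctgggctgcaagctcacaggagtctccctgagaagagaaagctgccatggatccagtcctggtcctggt
Cyp2c65 (chr19:39060756-39061055, + strand): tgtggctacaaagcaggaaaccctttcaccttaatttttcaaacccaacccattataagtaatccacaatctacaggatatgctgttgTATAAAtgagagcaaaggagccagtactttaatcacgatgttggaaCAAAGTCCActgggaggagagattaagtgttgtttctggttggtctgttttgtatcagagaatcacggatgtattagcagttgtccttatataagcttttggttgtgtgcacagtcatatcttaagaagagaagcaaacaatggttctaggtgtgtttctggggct
Cyp2c66 (chr19:39113648-39113947, + strand): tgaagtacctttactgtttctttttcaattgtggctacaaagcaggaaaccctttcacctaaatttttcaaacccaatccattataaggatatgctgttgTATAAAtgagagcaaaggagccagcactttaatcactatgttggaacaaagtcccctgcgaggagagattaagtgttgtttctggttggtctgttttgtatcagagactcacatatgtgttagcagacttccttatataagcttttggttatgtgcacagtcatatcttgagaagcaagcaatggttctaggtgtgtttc
Cyp2c68 (chr19:39741052-39741351, - strand): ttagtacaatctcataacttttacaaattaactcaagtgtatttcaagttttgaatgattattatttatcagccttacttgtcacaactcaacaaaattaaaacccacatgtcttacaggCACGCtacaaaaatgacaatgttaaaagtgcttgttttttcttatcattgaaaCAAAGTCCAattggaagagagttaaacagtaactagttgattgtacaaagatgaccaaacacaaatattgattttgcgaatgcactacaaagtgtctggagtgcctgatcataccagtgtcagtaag
Cyp2d9 (chr15:82452127-82452426, + strand): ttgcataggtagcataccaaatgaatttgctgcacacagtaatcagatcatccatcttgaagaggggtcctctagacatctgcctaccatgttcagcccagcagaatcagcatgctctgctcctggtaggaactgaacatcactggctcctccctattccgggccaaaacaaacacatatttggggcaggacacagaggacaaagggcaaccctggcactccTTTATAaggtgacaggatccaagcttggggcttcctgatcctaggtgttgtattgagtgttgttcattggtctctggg
Cyp2d10 (chr15:82407145-82407444, - strand): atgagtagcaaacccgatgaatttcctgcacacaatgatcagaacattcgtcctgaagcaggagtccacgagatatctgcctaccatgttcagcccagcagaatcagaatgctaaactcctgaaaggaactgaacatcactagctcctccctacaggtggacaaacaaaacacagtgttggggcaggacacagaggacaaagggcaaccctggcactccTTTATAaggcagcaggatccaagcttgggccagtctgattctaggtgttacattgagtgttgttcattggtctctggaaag
Capitals mark matches, on either strand, to letters searched for in every promoter. The TATA box was searched for as TATAAA. An element bound by HNF4 factors was searched for as CAAAGTCCA, and it was added after these promoters had been read. The core bound by the aryl hydrocarbon receptor was searched for as GCGTG. A half-site of nuclear receptors was searched for as AGGTCA. The D-box, bound by the clock factors DBP, TEF and HLF, was searched for as TTATGTAA. The E-box of clock factors was searched for as CACGTG. An estrogen response element was taken as GGTCA with its reverse complement 3 bases further on. A direct repeat of nuclear receptors was taken as the half-site repeated after 1 base. An HNF1 site was taken as GTTAAT with its reverse complement after 1 base. These are 9 motifs in all. The half-site lies inside the direct repeat and can lie inside the estrogen response element.

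The promoters of Cyp2c65 and Cyp2c66, which both fell, were 77.8% identical over their alignment, and those of Cyp2d9 and Cyp2d10, which both rose, 82.9%. The promoter of Cyp2c55, which also fell, was 53.2% identical to that of Cyp2c65 and 47.4% to that of Cyp2c68, which rose. Promoters of genes that moved in opposite directions were also 49.7% (Cyp2c66 and Cyp2c68) and 49.1% (Cyp2c55 and Cyp2d10) identical. Those of Cyp2c68 and Cyp2d10, which lie in different clusters and both rose, were 48.7% identical. Identities at this level therefore do not tell genes that fell from genes that rose. TATAAA lay 29 bases before the start in Cyp2c55, on the gene's strand. In Cyp2d10 and Cyp2d9 the match, 31 and 28 bases before the start, reads TTTATA on the gene's strand, so TATAAA lies on the opposite strand. In Cyp2c65 and Cyp2c66 TATAAA lay 162 and 150 bases before the start, on the gene's strand. Both of these promoters also hold TATATAAG nearer the start, which the search for TATAAA does not mark. The HNF4 element was found in Cyp2c65, 116 bases before the start, and in Cyp2c68, 77 bases before it, so that it occurred in a gene that fell and in a gene that rose. Over the 83 promoters that the table gives for 73 members, it was found in 9 (10.8%, against 0.475% of 32851 promoters, chromosome 18 left out), of which 6 belong to genes of the Cyp2c cluster, which are related in sequence. Its letters were added after the promoters of the called members had been read, so these shares cannot serve as a test. TATAAA was found in 38.6% of the members' promoters against 13.6% of all, AGGTCA in 26.5% against 16.3% and GCGTG in 20.5% against 32.4%. CACGTG was found in 2.41% against 7.15%. The estrogen response element, the D-box, the direct repeat and the HNF1 site were found in 0 of the 83, against 0.0700%, 0.938%, 0.0396% and 0.00913% of all promoters. A match is a run of letters in this window and no measure of binding.

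Levels in WT were very uneven. Of the 95 members 5 stood at or above 100 CPM as the mean of the WT libraries, 16 between 10 and 100, 15 between 1 and 10 and 24 below 1, while 35 had no count in either WT library. A count of 0 allows up to 3 counts, which is 0.0890 to 0.0973 CPM of the unscaled library totals and covers counting error only. Cyp2c55, which hydroxylates arachidonic acid and is known from large intestine, was the most abundant member, and it made up 66.8% and 61.2% of the summed CPM of all members in WT 1 and WT 2. Compared per length of the longest coding transcript, it stood at 1089 CPM per kilobase as the WT mean, followed by Cyp2c65 with 110, Cyp4f14 with 70.7, Cyp3a13 with 69.2 and Cyp2d34 with 68.0. Cyp4f16 (26.0), Cyp2c68 (24.4), Cyp2s1 (21.3), Cyp2j6 (18.4) and Cyp4f13 (17.8) completed the 10 highest, and the same 10 led without division by length. In that order Cyp4f14, Cyp3a13 and Cyp2d34 did not differ beyond their spread, with 74.7 and 66.8, 54.6 and 83.7, and 59.3 and 76.7 CPM per kilobase in WT 1 and WT 2.

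**Figure D1:**
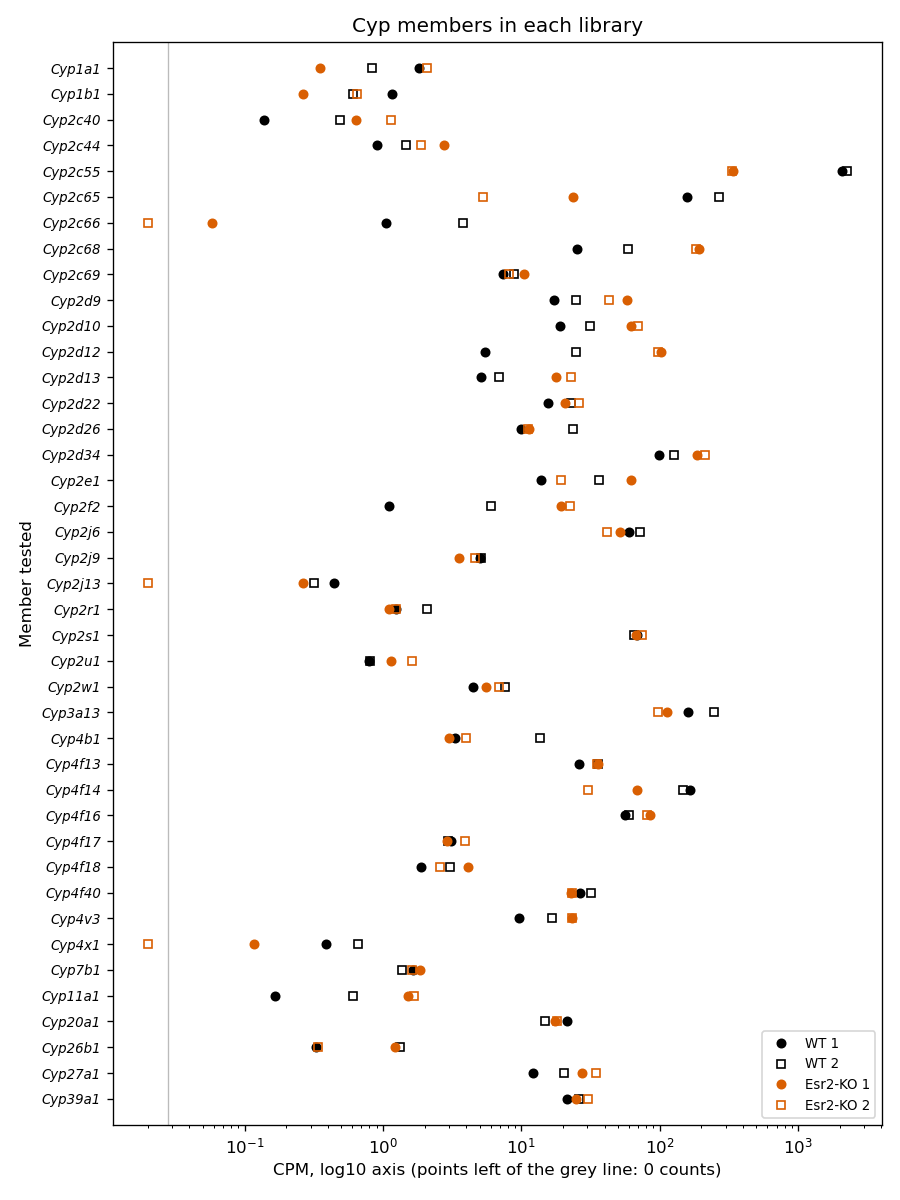
Level of each of the 41 members tested in each library, in CPM on a log10 axis; filled symbols are replicate 1 and open symbols replicate 2, black WT and orange Esr2-KO, and points left of the grey line have 0 counts. Cyp2c55 lies above 2000 CPM in both WT libraries and near 336 CPM in both Esr2-KO libraries.

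The change from WT to Esr2-KO was tested over the whole table by the quasi-likelihood test of edgeR, and a call needs a Benjamini-Hochberg adjusted p under 0.05. Of 66 members with a count, 41 passed the filter on low counts and 25 did not; some low members, such as Cyp2c66, Cyp4x1 and Cyp11a1, passed it through the group in which they were higher. Of the 41, 4 rose and 3 fell, 17.1%, beside 2.69% of all 17169 genes tested (1.30% higher and 1.39% lower). Both Esr2-KO libraries lay above both WT libraries for 14 members and below for 10, against 27.0% and 27.7% of all genes, and the groups overlapped for 17. The median log2 fold change of the 41 was 0.19 against -0.0031 over all genes, and its median size without sign 0.83 against 0.26. The WT libraries also differed more from each other at these genes, by a median of 0.63 on the log2 scale against 0.20 over all genes, and the Esr2-KO libraries by 0.33 against 0.23. All 7 calls were also made without Esr2-KO 2, where the acinar markers were high, among 9 members called then. At an adjusted p under 0.01, edgeR called 0 members, beside 5 of all 17169 genes. At an adjusted p under 0.10 it called 13 members, beside 1245 of all genes. DESeq2 called 13 members at 0.05, beside 10.2% of the 16611 genes that it tested.

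**Figure D2:**
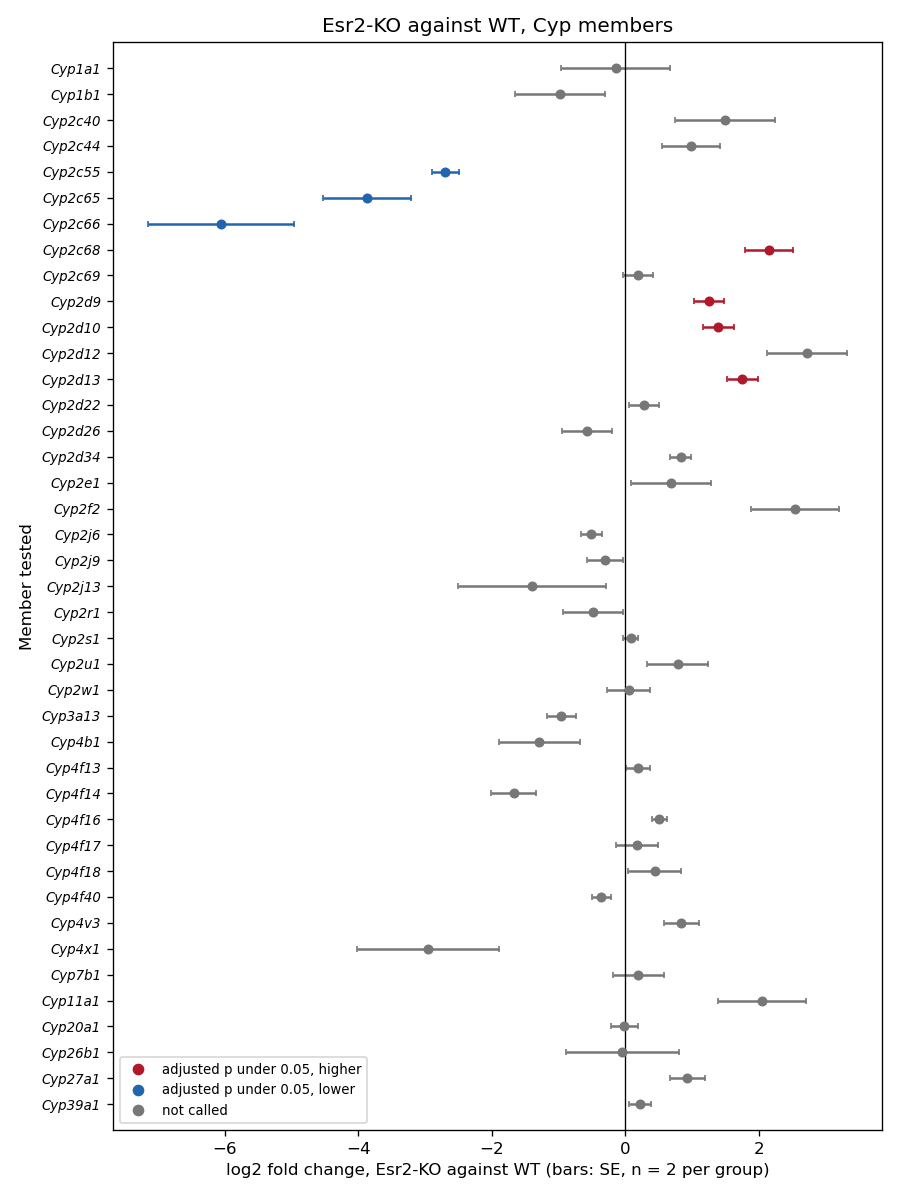
log2 fold change of Esr2-KO against WT for the 41 members tested, with bars of 1 SE (n = 2 per group) from edgeR; red and blue points passed an adjusted p of 0.05. The 7 coloured points all belong to Cyp2c and Cyp2d, from -6.06 for Cyp2c66 to 2.16 for Cyp2c68.

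In the Cyp2c subfamily, whose enzymes epoxidise and hydroxylate arachidonic and linoleic acid and clear many drugs, 7 of 15 members were tested, 3 fell and 1 rose. Over all genes tested 1.39% were called lower and 1.30% higher. Cyp2c55 (chromosome 19, 39007019 to 39042693, GRCm38, GENCODE) stood at 2086 and 2260 CPM in the WT libraries against 336 and 335 CPM in the Esr2-KO libraries. The groups lay far apart and the libraries within each close together, and the log2 fold change was -2.69 ± 0.21 (SE, edgeR adjusted p = 0.0125), a level 6.47-fold lower. This call was made under all 14 alternatives that kept the threshold of 0.05, with log2 fold changes from -2.86 to -2.62.

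Cyp2c65 (39061015 to 39093944), the next gene along the chromosome and a form known from the intestine, stood at 157 and 267 CPM in the WT libraries against 23.5 and 5.31 CPM in the Esr2-KO libraries. Both Esr2-KO libraries were low, and Esr2-KO 2 was the lower of them. The log2 fold change was -3.87 ± 0.66 (edgeR adjusted p = 0.0386), and it ran from -3.17 without Esr2-KO 2 to -5.31 without Esr2-KO 1. The call ended without WT 1 (adjusted p = 0.0564) or without WT 2 (0.0715), over a range of adjusted p from 2.37e-08 to 0.0715 in all alternatives.

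Cyp2c66 (39113898 to 39187072), the third neighbour, was rare, with 38 and 132 counts in the WT libraries against 2 and 0 in the Esr2-KO libraries. That is 72.4-fold more in WT over the summed counts of each group, with a 95% exact counting interval from 19.7 to 603 that covers counting error only. The fitted log2 fold change was -6.06 ± 1.10 (edgeR adjusted p = 0.0450), a value that depends on the prior count and ran from -4.85 without WT 2 to -9.30 without Esr2-KO 1. It did not pass without WT 2 (adjusted p = 0.157) or with limma-voom (0.0929), over a range from 1.94e-06 to 0.157 in all alternatives.

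In the other direction went Cyp2c68 (39688834 to 39741054), whose role is not well defined, with 25.4 and 58.8 CPM in the WT libraries against 194 and 182 CPM in the Esr2-KO libraries. The Esr2-KO libraries agreed closely, while the WT libraries differed by more than 2-fold, and the log2 fold change was 2.16 ± 0.36 (edgeR adjusted p = 0.0364), a level 4.46-fold higher. The call was made under the same 14 alternatives, with log2 fold changes from 1.68 without WT 1 to 2.90 without WT 2. Per length, Cyp2c68 reached 112 and 105 CPM per kilobase in Esr2-KO, against 168 and 168 for Cyp2c55 there.

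Cyp2c68 lies between close relatives. Cyp2c40, which stood at 0.138 and 0.489 CPM in the WT libraries against 0.643 and 1.14 in the Esr2-KO libraries, had a log2 fold change of 1.49 ± 0.75 (adjusted p = 0.315), and Cyp2c69, at 7.43 and 8.91 against 10.4 and 8.19 CPM, one of 0.19 ± 0.23 (0.686). Cyp2c67 did not pass the filter, with 4 and 3 counts in the WT libraries against 14 and 7 in the Esr2-KO libraries. These genes are hard to separate by sequence: of the 50-base windows of their longest coding transcripts, 43.3% in Cyp2c68, 72.1% in Cyp2c40, 54.8% in Cyp2c69 and 52.8% in Cyp2c67 occur in a transcript of another gene. The split of reads between them is therefore uncertain. Of the windows of Cyp2c65 20.6% are shared, nearly all with Cyp2c66, and Cyp2c66 shares 24.0% with Cyp2c65. Cyp2c70, the last gene of the cluster, did not pass the filter, with 2 and 12 against 6 and 8 counts. Outside the cluster, Cyp2c44 (named Cyp2c23 in GENCODE), an arachidonic acid epoxygenase, was at 0.909 and 1.47 CPM in the WT libraries against 2.78 and 1.90 in the Esr2-KO libraries (0.98 ± 0.43, adjusted p = 0.266). Another 5 genes, the liver-abundant Cyp2c37, Cyp2c38, Cyp2c39, Cyp2c50 and Cyp2c54, had no count in any library, and Cyp2c29 had 1 in WT 2.

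**Figure D3:**
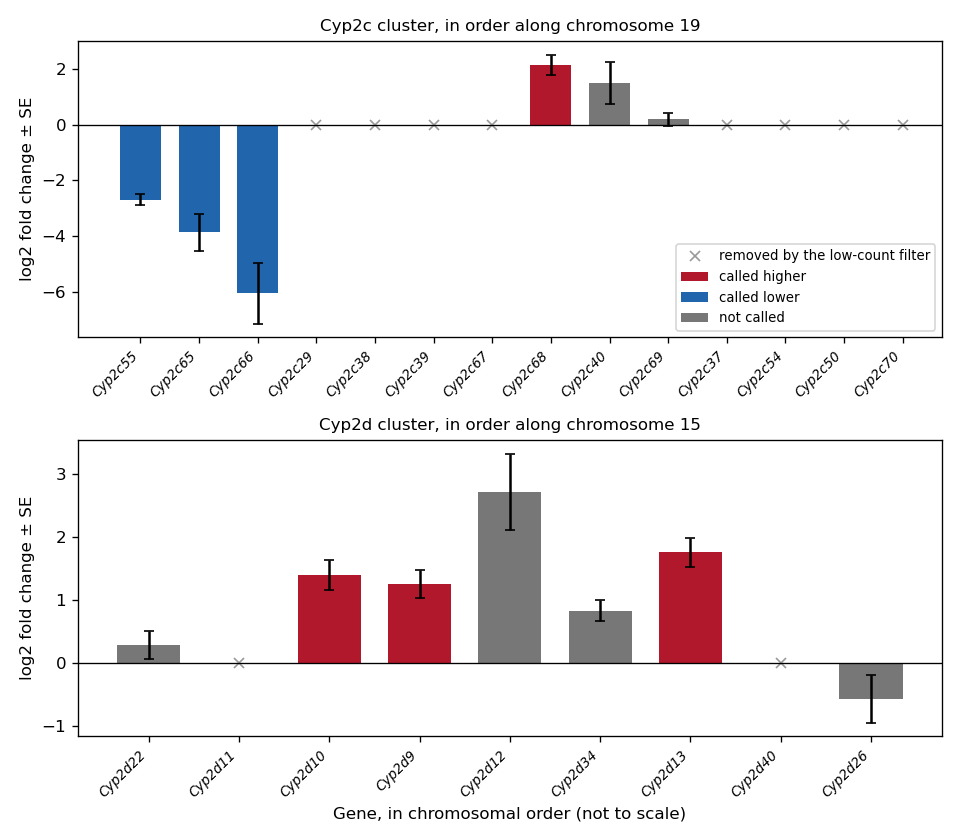
log2 fold change with SE of the genes of the Cyp2c cluster (upper panel) and the Cyp2d cluster (lower panel) in chromosomal order; crosses are members that the low-count filter removed. In Cyp2c the first 3 genes fell and Cyp2c68, at the eighth place, rose; in Cyp2d every gene tested but Cyp2d26, at the end of the row with -0.57, has a positive value.

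The Cyp2d subfamily is the mouse counterpart of human CYP2D6, which oxidises many drugs. Of 9 members 7 were tested, 3 rose and 0 fell, and 6 of the 7 had positive log2 fold changes, with a median of 1.26. Over all genes tested 1.30% were called higher, and 49.7% had positive values. Cyp2d10 (chromosome 15, 82402846 to 82407195) stood at 18.9 and 31.2 CPM in the WT libraries against 62.0 and 69.8 CPM in the Esr2-KO libraries (1.40 ± 0.23, edgeR adjusted p = 0.0373). Cyp2d9 (82433437 to 82456845), which in mouse liver is a male-predominant testosterone hydroxylase, stood at 17.2 and 25.01 against 57.7 and 43.1 CPM (1.26 ± 0.22, edgeR adjusted p = 0.0440). In both genes the groups were apart, with WT 1 the lowest library.

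Cyp2d13 stood at 5.12 and 6.90 CPM in the WT libraries against 17.7 and 22.8 CPM in the Esr2-KO libraries (1.75 ± 0.23, edgeR adjusted p = 0.0249). RefSeq lists it on GRCm38.p6 as a transcribed pseudogene (chromosome 15, 82636750 to 82642045), so that the count is one of RNA and not of a coding message. The calls of Cyp2d9, Cyp2d10 and Cyp2d13 ended without WT 1, with adjusted p of 0.149, 0.0598 and 0.0720, each the highest over its alternatives, where the lowest were 6.19e-06, 3.84e-07 and 5.51e-09.

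Cyp2d12 and Cyp2d34 lay apart between the groups too but did not pass. Cyp2d12 stood at 5.45 and 24.9 CPM in the WT libraries, which differ more than 4-fold from each other, and at 102 and 97.6 in the Esr2-KO libraries (2.72 ± 0.60, edgeR adjusted p = 0.0701). It passed under 9 of the alternatives, among them leaving out either WT library (adjusted p = 0.00786 and 0.00125, over a range from 1.89e-06 to 0.0739). Cyp2d34, the most abundant of the subfamily, stood at 98.5 and 127 against 187 and 214 CPM (0.83 ± 0.16, edgeR adjusted p = 0.0533). It was called under 7 of the 14 alternatives, among them DESeq2 (adjusted p = 4.95e-05), and its highest adjusted p over them was 0.192, without WT 1. Per length it stood at 113 and 129 CPM per kilobase in Esr2-KO. Cyp2d22 (15.7 and 22.9 against 20.8 and 26.1 CPM, 0.28 ± 0.22) and Cyp2d26 (9.91 and 23.5 against 11.3 and 11.1 CPM, -0.57 ± 0.38) overlapped between the groups. Cyp2d11 had at most 9 counts in a library and Cyp2d40 none. Among pseudogenes of the cluster, which the symbol rule leaves out, Cyp2d33-ps had 0 and 8 counts in the WT libraries against 32 and 28 in the Esr2-KO libraries (3.09 ± 1.05, edgeR adjusted p = 0.170). Reads may be split between these genes as well, since 40.5% of the windows of Cyp2d10, 29.0% of Cyp2d9, 17.9% of Cyp2d12 and 13.7% of Cyp2d34 occur in another gene's transcript. For Cyp2d13, which GENCODE lacks, no such value was obtained.

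The balance of the whole set moved with Cyp2c55. The summed level of all members was 3121 and 3693 CPM in the WT libraries against 1673 and 1583 CPM in the Esr2-KO libraries. Without Cyp2c55 it was 1035 and 1433 against 1337 and 1247 CPM, so that the groups overlapped. The summed level of Cyp2d was 171 and 262 CPM in the WT libraries against 458 and 484 in the Esr2-KO libraries, and that of Cyp4f 280 and 283 against 219 and 177 CPM. Cyp2c55 made up 20.1% and 21.2% of the members' sum in Esr2-KO. No test was made on sums, since the smallest two-sided p of an exact permutation test of 2 against 2 libraries is 0.33.

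**Figure D4:**
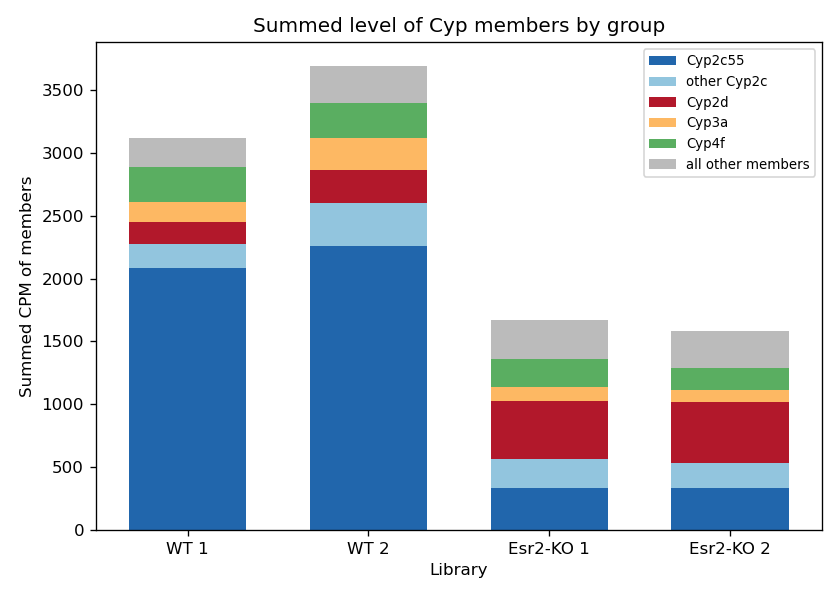
Summed CPM of the members in each library, stacked by Cyp2c55, the other Cyp2c genes, Cyp2d, Cyp3a, Cyp4f and all other members. Cyp2c55 takes 2086 and 2260 CPM of the WT bars and 336 and 335 CPM of the Esr2-KO bars, while the Cyp2d part is larger in both Esr2-KO bars.

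The remaining members of family 2 did not pass. Cyp2f2, which in mouse lung marks club cells and activates naphthalene, stood at 1.10 and 6.07 CPM in the WT libraries against 19.4 and 22.4 CPM in the Esr2-KO libraries (2.55 ± 0.66, edgeR adjusted p = 0.0976). Its log2 fold change was 1.78 without WT 1 (adjusted p = 0.0425) and 4.26 without WT 2 (0.00432), within a range of adjusted p from 4.87e-05 to 0.122 in all alternatives. Cyp2e1, the ethanol-inducible form, had 13.8 and 36.7 against 61.6 and 19.4 CPM, so that the spread within each group was as large as the difference (0.68 ± 0.60, edgeR adjusted p = 0.560). Adipocyte markers were also higher in WT 2 and Esr2-KO 1: the sum of 6, all detected in every library, was 133 and 297 CPM in the WT libraries against 303 and 78.2 in the Esr2-KO libraries, and their part in the value of Cyp2e1 was not tested.

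Cyp2s1, an extrahepatic form of epithelia, was nearly level at 69.1, 65.3, 67.6 and 74.6 CPM (WT 1, WT 2, Esr2-KO 1 and Esr2-KO 2; 0.08 ± 0.11, -0.09 with library totals in place of TMM). Cyp2j6, a Cyp2j form of the gut, stood at 60.5 and 72.1 against 51.7 and 41.5 CPM (-0.51 ± 0.15, edgeR adjusted p = 0.134). All 3 tested Cyp2j members had negative values, Cyp2j9 at -0.31 ± 0.27 and Cyp2j13, with 16, 11, 9 and 0 counts, at -1.40 ± 1.11. Cyp2r1, which starts the activation of vitamin D, was at 1.24 and 2.07 against 1.11 and 1.25 CPM. Cyp2u1, a long-chain fatty acid hydroxylase, was at 0.798 and 0.805 against 1.14 and 1.63 CPM, and Cyp2w1 at 4.46 and 7.62 against 5.55 and 6.94 CPM. None of these 3 passed, with edgeR adjusted p from 0.388 to 0.949. Cyp2j5, Cyp2j8 and Cyp2j12 had at most 4 counts in a library and Cyp2ab1 at most 8, while Cyp2j7, Cyp2j11, Cyp2g1 and Cyp2t4 had none. Of the Cyp2a and Cyp2b members, liver and lung forms that pregnane X receptor and its relative Nr1i3 can induce, 3 of 9 had any count, at most 8 in a library (Cyp2a12 in Esr2-KO 2).

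In family 3, the main drug-oxidising family of gut and liver, Cyp3a13 was the sole member tested. It stood at 161 and 247 CPM in the WT libraries against 114 and 96.6 CPM in the Esr2-KO libraries, with the groups apart (-0.96 ± 0.21, edgeR adjusted p = 0.0714). It was called under 6 of the 14 alternatives, and its adjusted p ran from 0.000162 with DESeq2 to 0.153 without WT 2. Other Cyp3a transcripts came almost all from WT 2. Cyp3a44 had 5 and 119 counts in the WT libraries against 0 in both Esr2-KO libraries, which is at least 35.2-fold lower when the empty group is set to 3 counts in sum. Cyp3a25 had 0 and 79 against 0 and 2 counts, and Cyp3a11 0 and 17 against 0 and 0. These 3 did not pass the filter, since a single library carried the counts. Some genes of the small intestine were also highest in WT 2: the sum of 10 enterocyte markers was 50.6 and 158 CPM in the WT libraries against 46.4 and 43.7 in the Esr2-KO libraries, and the sodium bile acid carrier Slc10a2 stood at 7.68 and 82.0 against 3.10 and 1.63 CPM. Sucrase-isomaltase (Sis) was at 0.275 and 12.6 against 0.0585 and 0 CPM, and lactase (Lct) at or under 0.152 CPM in every library. Slc10a2 made up most of the sum in WT 2, while intestinal alkaline phosphatase (Alpi) was high in both WT libraries (20.6 and 32.8 against 3.98 and 0.266 CPM) and Rbp2 higher in Esr2-KO (20.1 and 24.5 against 35.3 and 38.7 CPM). The part of such transcripts in these values was not tested. Cyp3a16, Cyp3a57 and Cyp3a59 had no count.

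Family 4 had 9 of 17 members tested and 0 past the threshold in edgeR's test, beside 2.69% of all genes. At an unadjusted p under 0.05 were 5, beside 3535 of all 17169 genes. DESeq2 called 3, beside 10.2% of all genes, and limma-voom 1, beside 3.53%. Cyp4f14, an omega-hydroxylase of leukotriene B4 and of vitamin E, stood at 166 and 148 CPM in the WT libraries against 68.0 and 30.2 CPM in the Esr2-KO libraries (-1.67 ± 0.34, edgeR adjusted p = 0.0585). It passed without Esr2-KO 1 (adjusted p = 3.11e-05) and without Esr2-KO 2 (0.00798), but not without WT 1 (0.175), the highest over its alternatives, of which the lowest was 3.36e-06. Cyp4f16 of the same subfamily went the other way, at 56.3 and 60.5 against 84.7 and 81.5 CPM (0.51 ± 0.11, edgeR adjusted p = 0.0612). Of the windows of Cyp4f16 26.5% are shared with other genes, chiefly Cyp4f37. Cyp4f40 (26.7 and 32.1 against 22.8 and 23.1 CPM, -0.36 ± 0.15) lay lower and Cyp4f13 (26.2 and 36.0 against 35.7 and 35.3 CPM, 0.19 ± 0.17) overlapped. Cyp4f18, a leukotriene B4 hydroxylase of neutrophils, was at 1.87 and 3.08 against 4.12 and 2.58 CPM, and Cyp4f17 at 3.08 and 2.93 against 2.89 and 3.91 CPM. Cyp4f15, Cyp4f37 and Cyp4f39 had at most 11 counts in a library.

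Cyp4v3, a fatty acid hydroxylase and the counterpart of the human gene of a corneal and retinal dystrophy, stood at 9.55 and 16.6 against 23.3 and 23.4 CPM (0.84 ± 0.26, edgeR adjusted p = 0.143). Cyp4x1 had 14 and 23 counts in the WT libraries against 4 and 0 in the Esr2-KO libraries (-2.96 ± 1.06, edgeR adjusted p = 0.187); the antisense gene Cyp4x1os overlaps it and whether counting used strand is not stated in the labels. Cyp4b1 was at 3.33 and 13.7 against 3.01 and 3.98 CPM (-1.29 ± 0.61), with the high value in WT 2. Of the 5 Cyp4a members, targets of the fatty acid receptor PPARα in liver and kidney, Cyp4a10 had 4 and 1 counts in the Esr2-KO libraries and 0 in WT, and the other 4 had none.

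Family 1, the classical targets of the aryl hydrocarbon receptor, was low. Cyp1a1 had 66 and 29 counts in the WT libraries against 12 and 55 in the Esr2-KO libraries (-0.15 ± 0.82), with the groups overlapping, and the sign turned without WT 1 (0.53) and without Esr2-KO 1 (0.65). Cyp1b1 had 42 and 21 against 9 and 17 counts (-0.98 ± 0.67), and Cyp1a2, the liver form, had none.

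Among enzymes of cholesterol breakdown and bile acid synthesis, Cyp7a1, the rate-limiting enzyme of the liver pathway, had no count and Cyp8b1 at most 5 in a library. Those of the alternative route were expressed. Cyp27a1, the mitochondrial sterol hydroxylase, stood at 12.2 and 20.4 CPM in the WT libraries against 27.4 and 34.6 CPM in the Esr2-KO libraries (0.93 ± 0.26, edgeR adjusted p = 0.115). Cyp39a1, an oxysterol hydroxylase, was at 21.5 and 26.0 against 24.9 and 30.4 CPM (0.22 ± 0.17), and Cyp7b1, which hydroxylates oxysterols and steroids, at 1.65 and 1.38 against 1.84 and 1.63 CPM (0.20 ± 0.38). Cyp46a1, the cholesterol hydroxylase of neurons, had 2 and 1 counts in the WT libraries against 10 and 8 in the Esr2-KO libraries, a ratio of 7.04 with a 95% exact counting interval from 2.06 to 37.3.

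Steroid-making members were near absent. Cyp17a1, Cyp19a1 (aromatase, which makes estrogens), Cyp21a1 and Cyp11b1 (the last steps of corticosteroid synthesis) had no count in any library, and Cyp11b2 had 1. Cyp11a1, the side-chain cleavage enzyme that opens steroid synthesis, had 6 and 21 counts in the WT libraries against 52 and 44 in the Esr2-KO libraries (2.05 ± 0.66, edgeR adjusted p = 0.152). Of 5 markers of adrenal cortex, Nr5a1 was at or under 0.0575 CPM in every library, and the sum of the 5, which was mostly Akr1b7, was 9.39 and 9.69 CPM in the WT libraries against 6.20 and 7.02 in the Esr2-KO libraries. Akr1b7 stood at 8.59 and 8.74 against 5.47 and 5.20 CPM, and Star, the carrier that feeds cholesterol to Cyp11a1, at 0.716 and 0.690 against 0.614 and 1.74 CPM.

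For vitamin D, Cyp27b1, which makes the active hormone, had 11 and 9 counts in the WT libraries against 1 and 0 in the Esr2-KO libraries, a ratio of 17.0 (95% exact counting interval 2.72 to 706) for a gene that the filter removed. Cyp24a1, which degrades the hormone, had 4 counts in Esr2-KO 1 and 0 elsewhere. Of the retinoic acid hydroxylases, Cyp26b1 had 12 and 46 counts in WT against 42 and 9 in Esr2-KO, with no separation of the groups, and Cyp26a1 and Cyp26c1 had at most 2. Cyp20a1, an orphan member, was at 21.3 and 14.8 against 17.6 and 18.1 CPM (-0.01 ± 0.21).

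Of 3 P450 genes that carry other symbols 0 passed in edgeR's test, beside 2.69% of all genes. At an unadjusted p under 0.05 were 2, beside 3535 of all 17169 genes. DESeq2 called 1, beside 10.2% of all genes, and limma-voom 0, beside 3.53%. Cyp51, the sterol demethylase of cholesterol synthesis, stood at 257 and 152 against 136 and 101 CPM (-0.79 ± 0.26, edgeR adjusted p = 0.167), the prostacyclin synthase Ptgis at 8.56 and 8.16 against 11.1 and 15.6 CPM (0.68 ± 0.23, 0.162) and the thromboxane synthase Tbxas1 at 6.50 and 6.47 against 5.50 and 5.96 CPM (-0.18 ± 0.22, 0.696). Of 12 genes of electron supply and haem turnover, 11 were tested and 0 passed in edgeR's test, beside the same 2.69% of all genes. At an unadjusted p under 0.05 were 4, and DESeq2 called 2 and limma-voom 1, beside the same shares of all genes. P450 reductase (Por), which passes electrons to all microsomal members, was at 101 and 114 against 127 and 141 CPM (0.32 ± 0.13, edgeR adjusted p = 0.218). The smallest p values were those of the haem-binding partner Pgrmc1 (138 and 151 against 99.6 and 89.4 CPM, -0.61 ± 0.12, edgeR adjusted p = 0.0549) and of Alas1, the first enzyme of haem synthesis (113 and 93.9 against 79.0 and 69.0 CPM, -0.48 ± 0.14, 0.119).

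Of 19 receptors and regulators of Cyp genes, 18 were tested, 1 rose and 0 fell, which is 1 of 18 beside 2.69% of all genes. At an unadjusted p under 0.05 were 7, beside 3535 of all 17169 genes. The oxysterol receptor Nr1h3 rose from 14.95 and 18.6 to 32.4 and 31.9 CPM (0.94 ± 0.16, edgeR adjusted p = 0.0364). The fatty acid receptor Ppara was at 27.6 and 41.0 against 16.8 and 13.9 CPM (-1.16 ± 0.22, edgeR adjusted p = 0.0501) and the bile acid receptor Nr1h4 at 84.2 and 110 against 60.1 and 41.9 CPM (-0.93 ± 0.21, 0.0704). Nr1i2, the pregnane X receptor, was at 57.3 and 74.8 against 79.5 and 87.0 CPM (0.33 ± 0.15, 0.276), Ahr at 17.5 and 20.0 against 20.4 and 15.02 CPM and Hnf4a at 700 and 664 against 880 and 1063 CPM (0.51 ± 0.19, 0.203). Of 10 epoxide hydrolases and other arachidonic acid enzymes 8 were tested and 0 passed in edgeR's test, beside 2.69% of all genes. At an unadjusted p under 0.05 were 2, beside 3535 of all 17169 genes. DESeq2 and limma-voom called 0, beside 10.2% and 3.53% of all genes. The soluble hydrolase Ephx2, which opens the epoxides that Cyp2c enzymes form, was at 21.4 and 30.7 against 28.0 and 26.3 CPM, and Ephx1 at 32.8 and 32.1 against 41.4 and 41.1 CPM.

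Genes that mark position along the gut and the hour of collection differed between the same libraries. Of 12 posterior Hox genes 8 were tested, 2 rose (Hoxb13 and Hoxd12) and 1 fell (Hoxa11), and their sum was 186 and 273 CPM in the WT libraries against 871 and 978 in the Esr2-KO libraries, with Hoxc12 and Hoxc13 at 0. Of 6 Hoxb genes anterior to these 3 fell (Hoxb7, Hoxb8 and Hoxb9), with sums of 81.1 and 131 against 44.8 and 46.9 CPM. Of 13 clock genes 3 rose (Per2, Per3 and Ciart) and 2 fell (Arntl and Npas2), with sums of 322 and 434 against 809 and 702 CPM. Beside the calls in these Hox and clock lists, 1.30% of all genes tested were called higher and 1.39% lower. Dbp, a clock output factor that acts on Cyp genes in mouse liver, stood at 2.64 and 22.3 against 138 and 89.4 CPM (3.19 ± 0.83, edgeR adjusted p = 0.0982). WT 2 lay between WT 1 and both Esr2-KO libraries in the posterior Hox sum, in the clock sum and in the 4 members that rose, whereas in the anterior Hoxb sum and in the 3 members that fell it lay farther from Esr2-KO than WT 1. The clock sum mixes genes that rose with genes that fell. Of the clock genes called, WT 2 lay between in Per3, Arntl and Npas2. WT 2 lay farther from Esr2-KO than WT 1 in Per2 (9.55 and 7.07 against 38.6 and 38.1 CPM) and in Ciart (0.551 and 0.345 against 10.9 and 8.38 CPM). The part of these genes in the results was not tested. Differences of position or hour between the groups cannot be told apart from the loss of Esr2. Of 10 hepatocyte markers 6 were tested and 0 passed in edgeR's test, beside 2.69% of all genes. There was 1 at an unadjusted p under 0.05, and 0 were called by DESeq2 or limma-voom. Their sums, 28.4 and 39.3 against 44.7 and 30.8 CPM, were mostly Tat (24.8 and 29.0 against 40.4 and 27.0 CPM). Some others were highest in WT 2: albumin (Alb) at 1.46 and 4.89 against 2.69 and 1.33 CPM, and Ahsg with 1 and 35 against 4 and 2 counts. Fgb had 0 and 9 against 0 and 0 counts, while Serpinc1 was highest in Esr2-KO 2 (14 and 13 against 16 and 33 counts). The part of such transcripts in the Cyp3a counts of WT 2 was not tested.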

How the data were processed

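The 4 colon libraries are of Trizol-extracted total RNA after rRNA depletion, prepared with NEBNext Ultra Directional reagents, per the labels' protocols. Reads were aligned with HISAT2 to mm10, per the submitters' processing notes; the counting program, annotation, strand setting and filters used are not stated there. The deposited values are raw counts per gene symbol. Genes were kept with filterByExpr (minimum count 10, minimum total 15), scaled by TMM (factors 1.08, 1.04, 1.04 and 0.856 for WT 1, WT 2, Esr2-KO 1 and Esr2-KO 2) and compared by the two-sided quasi-likelihood test of edgeR 4.0.16 (R 4.3.3; functions glmQLFit and glmQLFTest, no fold minimum, 2 residual degrees of freedom), with adjustment over all 17169 genes; the common biological coefficient of variation was 0.233. The procedure was tested on simulated data, but the setting and outcome are not given here, so nothing in the results rests on it. Standard errors are the log2 fold change divided by the root of F. CPM use the TMM-scaled totals of the tested genes. Transcript lengths, positions and 50-base windows came from GENCODE M21 (GRCm38, the build of mm10), which held 93 of the 95 members by their own symbols, Cyp2c44 as Cyp2c23 by RefSeq's synonym, and not Cyp2d13, for which no length was used. Reads of near-identical paralogs and of antisense genes cannot be told apart.

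The members and lists were chosen with earlier results of these data known. Named are the members past the threshold, the highest in WT of each family, the 12 highest in WT, the 12 with the smallest p among the rest, those with over 10 counts in a library and 0 in another, and list genes past the threshold or up to 2 with the smallest p; all others were named to account for every family or to show values beside a result, after their values were seen. The alternatives were other scalings (DESeq2 1.42.0 size factors, upper quartile, library totals), other filters, DESeq2, limma-voom (limma 3.58.1), edgeR's likelihood ratio test, a replicate block, leaving out 1 library at a time, leaving out acinar genes and other thresholds.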

Additional observations from a re-analysis of the deposited data

How the results depend on the processing

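The 7 called members kept their direction under each of the 14 alternatives that kept the threshold, and Cyp2c55 and Cyp2c68 also their call. With library totals in place of TMM, which shifted the median log2 fold change of all genes to -0.17, 11 members (5 lower), 695 genes and 35 genes of the context lists were called; without a low-count filter 19 (11 higher, 8 lower), 1916 and 52; with DESeq2 13 (8 higher, 5 lower), 1693 and 43; with edgeR's likelihood ratio test 15 (9 higher, 6 lower), 1341 and 42; with limma-voom 7 members were called higher. At an adjusted p of 0.01 the counts were 0 members (0 higher, 0 lower), 5 genes and 0 list genes, and at 0.10 they were 13 (8 higher, 5 lower), 1245 and 39, against 7, 462 and 14 at 0.05. At an unadjusted p under 0.05, edgeR gave 3535 genes. Leaving out each library in turn gave 7 to 14 members called, 3 to 8 higher, 1 to 6 lower, 165 to 1804 genes called, 17 to 52 list genes. The cause of these differences was not tested, beyond the fewer libraries of a fit that leaves one out, in which the lone sample is assumed to vary like the other group. The same 10 members were the highest without division by length.

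The replicate numbers are shared by the groups, but the labels tie them to no litter, batch or day, and the deviations of same-numbered libraries had a correlation of -0.08 across 17169 genes. With the replicate block 8 members were called, 5 of the 7 among them, and 490 genes; Cyp2c66 (adjusted p = 0.0527) and Cyp2d9 (0.0672) were not called.

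Signs of members that were not called turned for Cyp1a1 (-1.90 to 0.65 over the libraries left out), Cyp20a1 (0.0062 with limma-voom, 0.0092 with the replicate block, 0.00074 without pancreatic acinar genes; -0.23 to 0.27 over the libraries left out), Cyp26b1 (0.082 with limma-voom, 0.011 with the replicate block; -1.26 to 1.27 over the libraries left out), Cyp2e1 (-0.37 to 1.57 over the libraries left out), Cyp2s1 (-0.092 with library totals) and Cyp4f13 (-0.020 to 0.46 over the libraries left out). With 2 libraries a group, values under about 10 counts a library are limited by counting error.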
